A study of Mus musculus with 10 samples.

Results

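The carnitine shuttle and the enzymes of mitochondrial β-oxidation were described here as 10 genes, Cpt1b, Cpt2, Acadm, Acadl, Acadvl, Hadha, Hadhb, Acaa2, Eci2 and Etfdh, out of 56748 gene identifiers in the count tables. The genes were taken by name, in pathway order, and their Ensembl identifiers were matched to symbols with the GENCODE M39 annotation. RNA was sequenced from whole hearts of wild-type C57BL/6 mice, bought at 8 weeks of age. In the training group, 5 mice (labelled Exercise) had run on a treadmill for 8 weeks. They ran at 15 m/min for 120 min per day, 5 days a week. The 5 sedentary mice (labelled Control) were of the same age. Each heart gave 1 library, and atria and ventricles were homogenized together, so fewer cells of a type and less RNA per cell cannot be told apart.

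Fatty acids are the main fuel of the adult heart. A long-chain acyl-CoA is moved into the mitochondrion as an acylcarnitine by the carnitine palmitoyltransferases on the outer (CPT1) and inner (CPT2) membrane. It is then shortened in a spiral of dehydrogenation, hydration, a further dehydrogenation and thiolysis. The electrons of the first dehydrogenation pass through the electron transfer flavoprotein and its dehydrogenase, encoded by Etfdh, to ubiquinone. Enoyl-CoA isomerases such as ECI2 bring unsaturated fatty acids into the spiral.

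Between 29461697 and 35945417 reads per training heart and between 35196993 and 39431030 reads per sedentary heart were counted on genes. Of 15454 genes with enough reads to be tested, 1084 (7.01%) passed a false discovery rate (FDR) of 0.1 in the quasi-likelihood test of edgeR (adjusted after Benjamini and Hochberg), with 4.26% lower and 2.75% higher after training. Levels are given as CPM, counts scaled to the size of the library after correction by TMM factors, and as TPM, which also account for transcript length. Levels of different genes were compared in TPM.

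All 10 genes were among the abundant transcripts of the heart, with ranks between 58 and 665 among all identifiers by mean TPM. Hadhb was the highest, with a mean over the 10 hearts of 1163 TPM. Acadm followed at 742 TPM, Hadha at 678 TPM and Acadl at 552 TPM. The thiolase gene Acaa2 was at 464 TPM and Acadvl, the very-long-chain acyl-CoA dehydrogenase, at 460 TPM. Cpt1b was at 308 TPM, Etfdh at 283 TPM, Eci2 at 113 TPM and Cpt2 at 107.4 TPM. The genes thus fell into levels, and the ranges over the 10 hearts overlapped for the neighbours Acadm and Hadha, Acaa2 and Acadvl, Cpt1b and Etfdh, and Eci2 and Cpt2, but for no other neighbours in this order. Cpt1a, the CPT1 gene that predominates in liver, lay between 19.1 and 24.6 TPM.

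Cpt2, Etfdh and Eci2 were lower after training, and none of the 10 genes was higher at the same FDR. They are 3 of 10 genes tested, where 4.26% of all tested genes were lower. Eci2 was the lowest of the 10 in CPM apart from Cpt1b, and of the 975 tested genes at or above its mean level (132.5 CPM), 13.3% were lower. The STAR level of Cpt1b is far below its TPM and was not used as the bound. The training and sedentary hearts did not overlap in 3 of the 10 genes, which were the same 3. That held in 5.06% of all tested genes in either direction and in 2.94% with training lower. The separation comes from the values that gave the calls and is not separate support for them.

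Cpt2 (ENSMUSG00000028607, chromosome 4 of GRCm39, 107751473 to 107780812) encodes the inner-membrane transferase that turns acylcarnitine back into acyl-CoA. It measured 199.9, 192, 188, 195 and 201 CPM in training hearts 1 to 5 and 216, 240.1, 230.3, 245 and 248.5 CPM in sedentary hearts 1 to 5. Every training heart lay below sedentary heart 1, the lowest of its group. The means were 195 ± 5.49 CPM (SD, n = 5) and 236 ± 13.3 CPM (SD, n = 5), a log2 fold change of −0.28 (standard error 0.044, edgeR adjusted p = 0.0088). Cpt2 thus fell by 17.4%.

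Etfdh (ENSMUSG00000027809, chromosome 3 of GRCm39, 79511086 to 79536807) encodes the flavoprotein dehydrogenase that hands the electrons of fatty acid and amino acid oxidation to ubiquinone. Its level was 587, 541, 525, 569 and 578 CPM in training hearts 1 to 5 and 647, 694, 669.6, 698 and 627 CPM in sedentary hearts 1 to 5. The gap between the groups lay between training heart 1 and sedentary heart 5. The means were 560.0 ± 26.1 CPM (SD, n = 5) and 667 ± 30.5 CPM (SD, n = 5). The log2 fold change was −0.25 (standard error 0.046, edgeR adjusted p = 0.0161), and the level fell by 16.1%.

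Eci2 (ENSMUSG00000021417, chromosome 13 of GRCm39, 35161718 to 35211079) encodes an enoyl-CoA δ-isomerase found in mitochondria and peroxisomes. Training hearts 1 to 5 were at 132, 122, 116, 122 and 126 CPM and sedentary hearts 1 to 5 at 134, 148, 138, 149 and 138 CPM. Training heart 1 and sedentary heart 1 came closest to each other. The means of 124 ± 5.71 CPM (SD, n = 5) and 141 ± 6.93 CPM (SD, n = 5) differed by −0.19 on the log2 scale (standard error 0.045, edgeR adjusted p = 0.0358), and Eci2 fell by 12.6%. A stretch of 194 bases, 14.97% of its canonical transcript, has a copy of 97.938% identity in the neighbouring gene Eci3, which was at most at 0.218 CPM in any heart.

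**Figure D1:**
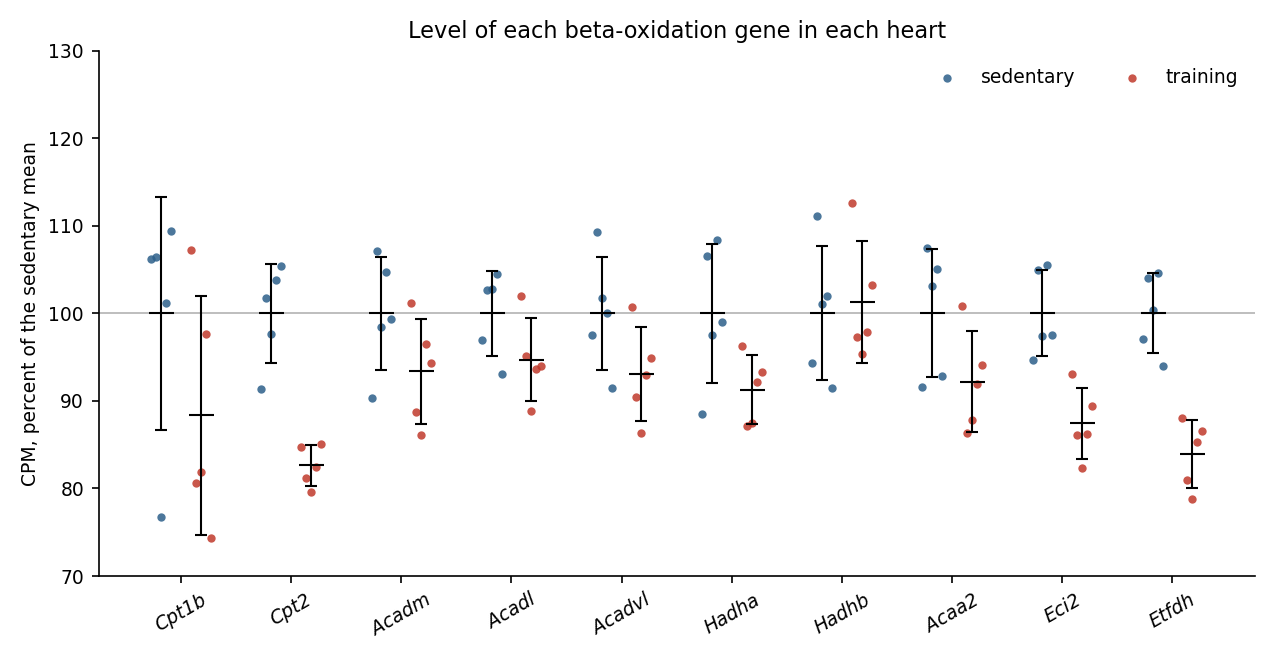
CPM of each gene in each of the 5 sedentary (blue) and 5 training hearts (red), as a percent of the gene's sedentary mean, with black bars for mean and SD. The groups separate for Cpt2, Eci2 and Etfdh and overlap for the other 7 genes.

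The promoters of the 3 lower genes, and that of Hadha, which shares its promoter with Hadhb, are shown because these are the genes that the comparisons turn on. They are windows of 300 bases from 250 before to 50 after the RefSeq transcription start (RefSeq, GRCm38.p6 table), each of which matched GRCm39 exactly, and 8 of the 10 genes had such a window (Cpt1b and Acaa2 had no entry). Capitals mark a match to any of 4 motifs on either strand. The Cpt2 window is chr4:107780737-107781036 (minus strand), that of Eci2 chr13:35178078-35178377 (minus), that of Etfdh chr3:79536025-79536324 (minus) and that of Hadha chr5:30359929-30360228 (minus).
Cpt2: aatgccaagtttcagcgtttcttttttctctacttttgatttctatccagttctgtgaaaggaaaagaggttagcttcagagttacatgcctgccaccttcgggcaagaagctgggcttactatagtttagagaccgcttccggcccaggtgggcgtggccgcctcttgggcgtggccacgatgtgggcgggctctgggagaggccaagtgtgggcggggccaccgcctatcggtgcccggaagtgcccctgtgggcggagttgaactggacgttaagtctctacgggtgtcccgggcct
Eci2: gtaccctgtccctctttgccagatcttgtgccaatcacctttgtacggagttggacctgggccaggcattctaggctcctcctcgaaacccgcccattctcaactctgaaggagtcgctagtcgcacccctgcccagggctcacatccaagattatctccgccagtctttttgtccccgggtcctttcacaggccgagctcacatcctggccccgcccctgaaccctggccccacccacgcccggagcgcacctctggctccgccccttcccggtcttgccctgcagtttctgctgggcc
Etfdh: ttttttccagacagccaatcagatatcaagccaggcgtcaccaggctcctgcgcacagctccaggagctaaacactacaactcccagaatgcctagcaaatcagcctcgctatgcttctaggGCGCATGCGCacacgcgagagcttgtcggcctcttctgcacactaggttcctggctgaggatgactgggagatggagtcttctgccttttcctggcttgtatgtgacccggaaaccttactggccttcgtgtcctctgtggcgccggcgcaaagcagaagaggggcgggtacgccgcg
Hadha: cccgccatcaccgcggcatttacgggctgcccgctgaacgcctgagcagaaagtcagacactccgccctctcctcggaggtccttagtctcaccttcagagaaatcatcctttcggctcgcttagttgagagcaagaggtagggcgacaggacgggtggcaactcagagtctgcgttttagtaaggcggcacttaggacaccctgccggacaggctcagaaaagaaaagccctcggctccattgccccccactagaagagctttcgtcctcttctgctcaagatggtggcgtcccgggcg

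The motifs searched were the nuclear receptor half-site AGGTCA, the estrogen-related receptor element TCAAGGTCA, which contains that half-site, the core CGCATGCGC bound by NRF1 and the E-box CACGTG. NRF1 cores stood in the windows of Etfdh and Acadm, 2 of 8, against 1.75% of the 32851 windows of all genes. In Etfdh the core matched on both strands, 1 base apart, from position −128, where the start site is position 1. The half-site stood in the windows of Acadm and Acadvl, against 16.3% of all windows. No match to the estrogen-related receptor element (0.423% of all windows) or to the E-box (7.15%) was in any of the 8 windows. No motif was shared by the 3 lower genes.

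The acyl-CoA dehydrogenases start each turn of the spiral, and none of the 3 measured here passed the FDR. Acadvl takes very-long-chain, Acadl long-chain and Acadm medium-chain acyl-CoA. Acadvl was at 848 ± 48.9 CPM in training and 911 ± 59.1 CPM in sedentary hearts (SD, n = 5), a log2 fold change of −0.10 (standard error 0.054, edgeR adjusted p = 0.311). For Acadl that value was −0.08 (standard error 0.048, edgeR adjusted p = 0.399) and Acadm of −0.10 (standard error 0.057, edgeR adjusted p = 0.359). The groups overlapped in all 3 genes. Acaa2, the thiolase that cuts off acetyl-CoA from medium-chain substrates, differed by −0.12 on the log2 scale (standard error 0.058, edgeR adjusted p = 0.276), at 626 ± 39.1 CPM against 679 ± 49.6 CPM (SD, n = 5).

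Hadha and Hadhb encode the α and β subunits of the mitochondrial trifunctional protein, which carries hydratase, hydroxyacyl-CoA dehydrogenase and thiolase activity for long chains. Their genes lie head to head on chromosome 5, with 273 bases between the RefSeq starts, and their promoter windows share 228 of 300 bases. Exons of both overlap by 932 bases on opposite strands, and at least 99.8% of the reads on either strand of each of the 10 genes lay on the gene's own strand. Hadha was at 1471, 1331, 1336, 1407 and 1425 CPM in training hearts 1 to 5. In sedentary hearts 1 to 5 it was at 1352, 1626, 1489, 1656 and 1512 CPM. Sedentary heart 1 lay within the training range, and the other sedentary hearts lay above it. The log2 fold change was −0.13 (standard error 0.057, edgeR adjusted p = 0.219), and without sedentary heart 1 it was −0.17 and passed the threshold (edgeR adjusted p = 0.0633). That was the 1 of 10 fits with a heart left out in which Hadha passed, with edgeR adjusted p up to 0.398. Hadha passed in 0 of 11 other settings.

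Hadhb was the only one of the 10 genes with a log2 fold change above 0, at 0.02 (standard error 0.060, edgeR adjusted p = 0.903). Its level was 829 ± 57.0 CPM in training and 818 ± 62.7 CPM in sedentary hearts (SD, n = 5). The count tables differed for this gene. Of its canonical transcript, 96.36% has a copy of 99.694% identity on chromosome 2 (108779115 to 108781073), the processed pseudogene Hadhb-ps. STAR, which counts uniquely mapped reads, gave Hadhb between 25461 and 32549 reads per heart and Hadhb-ps between 202 and 262. RSEM, which shares reads between matching genes, gave Hadhb between 51208 and 63763 and Hadhb-ps between 1949 and 2736 expected counts. With RSEM counts the log2 fold change of Hadhb was −0.01, so its direction depended on the table used.

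In TPM from RSEM, Hadha made up 36.6% ± 0.924 of the summed Hadha and Hadhb level in training and 37.1% ± 0.837 in sedentary hearts (SD, n = 5). The difference of −0.58 percentage points was within the spread between hearts (exact two-sided permutation test, p = 0.341, where the smallest possible p is 0.00794). The share computed from STAR counts, which are not per length and leave out reads that also match Hadhb-ps, differed by −2.35 percentage points (exact two-sided permutation test, p = 0.0159). With RSEM expected counts, which hold such reads but are not per length, the log2 fold changes were −0.13 for Hadha and −0.01 for Hadhb. Whether the share differed thus depended on the measure, and the cause was not tested.

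Cpt1b encodes the muscle form of CPT1, the outer-membrane step at which malonyl-CoA inhibits entry of fatty acids. Its STAR counts were low for so abundant a transcript. Gm44502, an annotated protein-coding gene, shares 2744 exon bases with Cpt1b on the same strand, and reads on exons of both are given to neither. STAR gave Cpt1b between 230 and 439 reads per heart and Gm44502 0 reads in every heart. RSEM gave Cpt1b between 20885 and 28281 and Gm44502 between 27.3 and 277 expected counts. For Cpt1b the RSEM total over the hearts was 71.9 times the STAR total and for Hadhb 2.02 times, against between 0.941 and 0.992 times for the other 8 genes.

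**Figure D2:**
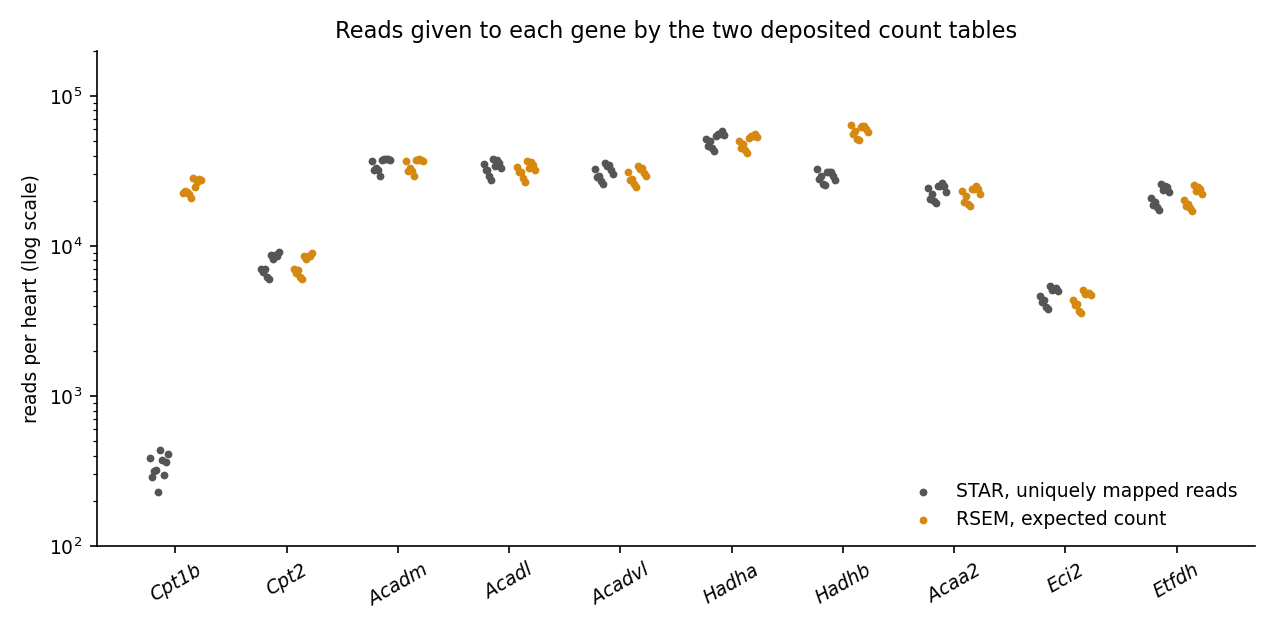
Reads per heart, on a log scale, that the STAR table (gray) and the RSEM table (orange) give to each gene, 1 point per heart. The tables nearly coincide for 8 genes, while the RSEM totals of Cpt1b and Hadhb are 71.9 and 2.02 times their STAR totals.

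Cpt1b measured 11.0, 8.27, 8.41, 10.0 and 7.63 CPM in training hearts 1 to 5 and 10.9, 10.9, 7.88, 10.4 and 11.2 CPM in sedentary hearts 1 to 5, from STAR counts. The groups overlapped, and sedentary heart 3 lay among the lower training hearts. The log2 fold change was −0.18 (standard error 0.11, edgeR adjusted p = 0.417). With RSEM counts it was −0.16 (edgeR adjusted p = 0.105), just above the threshold. Cpt1a was at 90.8 ± 4.72 CPM in training and 84.2 ± 2.89 CPM in sedentary hearts (SD, n = 5), a log2 fold change of 0.11 (standard error 0.044, edgeR adjusted p = 0.184).

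Over the 10 genes, the median log2 fold change was −0.12, and 9 of 10 were below 0, as were 49.9% of all tested genes. The median of all tested genes was 0.00026. Among the 975 genes at or above the level of Eci2, the median was −0.048 and 68.8% were below 0. With library totals in place of TMM factors, the median of all genes moved to 0.053 and that of the 10 genes to −0.070, and Cpt2, Etfdh and Eci2 remained below the FDR. In the deposited TPM, with no correction for composition, the median log2 ratio was 0.077 over 15437 genes and −0.039 over the 10 genes. On that scale no training heart overlapped a sedentary heart for Cpt2, while Etfdh and Eci2 overlapped.

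The 10 genes varied together from heart to heart. Within the groups, all 45 pairs of genes had a correlation above 0 of their log2 CPM, with a median Pearson r of 0.772 over the 10 hearts, between 0.0964 (Cpt1b and Acadl) and 0.956 (Acadvl and Hadhb). These values share libraries and scaling factors and are a description. Training heart 1 was the highest training heart in 9 of the 10 genes, and training heart 3 the lowest in 7. Sedentary hearts 2 and 4 were above their group mean in all 10 genes, and sedentary heart 1 below it in 9. Training heart 1 was below the sedentary mean in 4 of 10 genes, training hearts 2, 3 and 4 in 10 and training heart 5 in 9. Over all 10 hearts, the genes outside the set with the log2 CPM most like the mean of the 10 genes were Myzap (Pearson r = 0.976), 2810025M15Rik (0.961), Rpl3l (0.957), Pex11a (0.956), Dnajc7 (0.955), Fn3krp (0.955), Art3 (0.954), Gm12002 (0.947), Bri3bp (0.943) and Zfp955b (0.937), among 13107 tested genes of at least 1 CPM. That mean gives equal weight to Cpt1b with its low STAR counts, and the correlations include the difference between the groups. They are a description as well.

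Markers of cell types differed between the same hearts. Among all tested genes, 4.26% were lower and 2.75% higher. Heart muscle markers were abundant, as in the labelled tissue. Of 10 cardiomyocyte markers, 9 were below 0 and 1 passed the FDR, Actc1 at −0.38, with a median of −0.10, close to that of the 10 β-oxidation genes. Their summed level was between 81608 and 86066 CPM in training and between 84833 and 95811 CPM in sedentary hearts, and none was at 0. All 8 atrial markers were above 0, with a median of 0.48, and 2 passed, Dkk3 and Sln. The atrial sum was between 5145 and 7735 CPM in training and between 2852 and 6942 CPM in sedentary hearts, with none at 0. Of 8 fibroblast markers, 7 were above 0 and 2 were higher (Lum and Pdgfra), with sums between 1411 and 1775 CPM in training and between 1240 and 1558 CPM in sedentary hearts, and none at 0. Of 8 adipocyte markers, 7 were tested, all above 0, and 0 passed (0 in DESeq2 and 0 at an unadjusted edgeR p under 0.05), with sums between 39.4 and 205 CPM in training and between 39.05 and 158 CPM in sedentary hearts, and Ucp1 was at 0 in some hearts. Of 7 endothelial markers 1 was lower (Tie1), and of 6 mural markers 1 was higher (Tagln) and 1 lower (Rgs5). Of the macrophage markers 0 of 6, of the skeletal muscle markers 0 of 3 tested and of the erythroid markers 0 of 4 passed in edgeR or DESeq2 (0, 0 and 1 at an unadjusted edgeR p under 0.05).

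With the mean log2 CPM of the atrial markers as a covariate, 0 of the 10 genes passed (3 at an unadjusted edgeR p under 0.05), and the log2 fold changes were −0.21 for Cpt2 and −0.24 for Etfdh (edgeR adjusted p = 0.146 for both) and −0.15 for Eci2 (edgeR adjusted p = 0.344). With the cardiomyocyte markers as a covariate, a fit added after seeing the data, 0 of 10 passed (2 at an unadjusted edgeR p under 0.05), and the values were −0.17 for Cpt2 (edgeR adjusted p = 0.271), −0.19 for Etfdh (edgeR adjusted p = 0.310) and −0.09 for Eci2 (edgeR adjusted p = 0.624). Over all genes, these fits called 104 and 60. The part of cell composition in the lower levels was not tested.

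**Figure D3:**
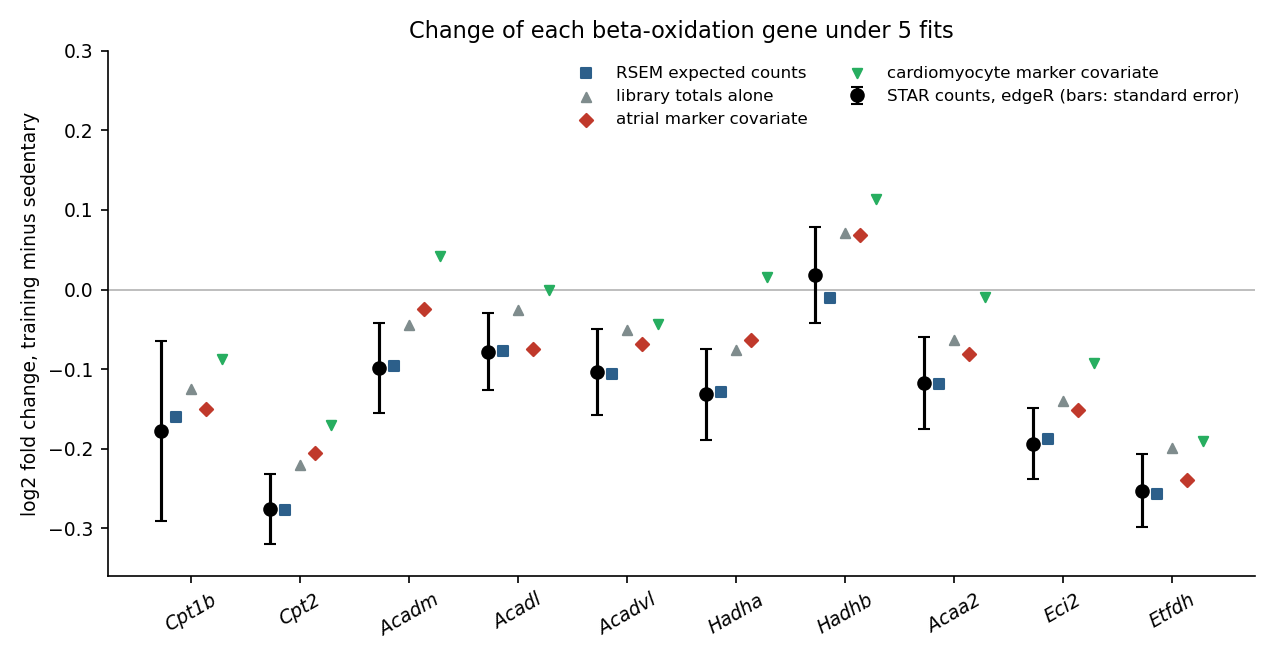
Log2 fold change of each gene, training minus sedentary, from STAR counts (black, bars are standard errors), RSEM counts, library totals alone, and with atrial or cardiomyocyte markers as a covariate. Cpt2, Etfdh and Eci2 stay below 0 in all 5 fits, while Hadhb crosses 0 with RSEM counts and Acadm and Hadha with the cardiomyocyte covariate.

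The rest of the mitochondrial pathway was taken from a list of 29 genes, all tested. In it 4 (13.8%) passed the FDR, all lower, against 4.26% lower among all tested genes. These 4 lay above the level of Eci2, and 13.3% of the 975 tested genes at or above that level were lower. Not all of the 29 genes reach it. In the list 18 were below 0, and the median was −0.055. With library totals alone 3 were higher and 2 lower, with a median of −0.0017, and Acot13 and Acsl1 did not pass (edgeR adjusted p = 0.103 and 0.124). With the atrial or the cardiomyocyte markers as a covariate 0 passed (3 at an unadjusted edgeR p under 0.05 in each). Acad11, an acyl-CoA dehydrogenase of very long chains whose exons overlap Gm28305 on the same strand by 163 bases, was at 169 ± 6.52 CPM in training and 196 ± 7.93 CPM in sedentary hearts (SD, n = 5), a log2 fold change of −0.22 (standard error 0.041, edgeR adjusted p = 0.0191). Slc25a20, the carnitine-acylcarnitine carrier between CPT1 and CPT2, was at 148 ± 8.39 CPM against 174 ± 12.0 CPM (SD, n = 5), a log2 fold change of −0.23 (standard error 0.053, edgeR adjusted p = 0.0354). The mitochondrial thioesterase gene Acot13 had −0.20 (standard error 0.051, edgeR adjusted p = 0.0447) and Acsl1, which activates long-chain fatty acids at the outer membrane, −0.17 (standard error 0.046, edgeR adjusted p = 0.0651). Acad11 and Slc25a20 passed in all 10 fits that left out 1 heart, Acot13 in 7 and Acsl1 in 5. The count of 4 became 2 when training heart 3, training heart 4 or sedentary heart 3 was left out, and 8 when sedentary heart 1 was.

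By role, the genes for carnitine transfer around Cpt2 included Crat at −0.14, Slc22a5 at 0.02 and Cpt1c at 0.06, none of which passed. The flavoprotein subunits upstream of Etfdh were at −0.06 (Etfa) and 0.18 (Etfb) and did not pass. Of the 1557 exon bases of Etfb, 678 overlap other genes on the same strand, and STAR gives reads on exons of both to neither. Etfb was at 46.5 CPM in training and 41.0 CPM in sedentary hearts, against 476 and 497 CPM for Etfa. The signs of the 2 subunits are thus not read against each other. The isomerase and reductase genes beside Eci2 were at −0.09 (Eci1), −0.11 (Decr1) and −0.14 (Ech1), and did not pass. Acaca, an acetyl-CoA carboxylase that makes malonyl-CoA, had the most positive value of the list, 0.56 (standard error 0.19, edgeR adjusted p = 0.117). Its mean level was 18.6 CPM in training and 12.6 CPM in sedentary hearts, and the groups overlapped. The other genes listed for malonyl-CoA control went the other way and did not pass. Acacb, at 546 against 608 CPM, had −0.15 (edgeR adjusted p = 0.136). Mlycd, at 114 against 123 CPM, had −0.11 (edgeR adjusted p = 0.243).

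Transcription factors and coregulators of the pathway were listed as 12 genes, of which 4 (33.3%) were lower and 0 higher, with a median of −0.15. Among all tested genes 4.26% were lower, and 6.39% among the 8592 genes of at least 9.67 CPM. PPARα, encoded by Ppara, switches on many genes of fatty acid oxidation. Ppara was at 44.3 ± 3.73 CPM in training and 53.4 ± 5.52 CPM in sedentary hearts (SD, n = 5), a log2 fold change of −0.27 (standard error 0.073, edgeR adjusted p = 0.0611). Ppard was at −0.17 (edgeR adjusted p = 0.0533), Pparg at −0.29 (edgeR adjusted p = 0.0535) and the corepressor gene Ncor1 at −0.15 (edgeR adjusted p = 0.0957). Ppargc1a, which encodes PGC-1α, had −0.29 with a standard error of 0.17 and did not pass (edgeR adjusted p = 0.357). The count of 4 fell to 0 at an FDR of 0.05, as well as when training heart 4 or sedentary heart 5 was left out. It was 1 without training heart 3, sedentary heart 2 or sedentary heart 4, and 2 without sedentary heart 3 or with library totals alone. With the atrial or the cardiomyocyte markers as a covariate it was 0, and the log2 fold change of Ppara was −0.23 and −0.12 (edgeR adjusted p = 0.392 and 0.742).

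Of 13 peroxisomal β-oxidation genes, 11 were tested and 0 passed in edgeR (4 at an unadjusted p under 0.05) and 1 in DESeq2, with a median of −0.076. Acaa1b and Eci3 had too few reads to be tested. Of 17 genes of lipid uptake and droplets, 8 (47.1%) were lower, with a median of −0.17, and the smallest p was that of Acsf2 at −0.45. The background for each share in this paragraph is 4.26% lower among all tested genes, and 13.3% among the 975 at or above the level of Eci2. Of 18 citric acid cycle genes, 1 (5.56%) was lower (Dlst, −0.16), with a median of −0.077. That share was near the 4.26% lower among all tested genes, and below the 13.3% among the 975 genes at or above the level of Eci2. Dlst passed in 3 of the 10 fits that left out 1 heart. Of 36 nuclear complex I subunit genes, 10 (27.8%) were lower, with a median of −0.15, and the smallest p was that of Ndufv3 at −0.30. This count was 22 when training heart 1 was left out, 2 when training heart 3 or 4 or sedentary heart 2 or 3 was, 4 without training heart 5 or sedentary heart 4, and 6 without sedentary heart 5. Of 8 PPARα targets outside β-oxidation, 2 (25%) were lower, Fabp3 and Cd36, which the lipid uptake list also holds, with a median of −0.20. When training heart 3, training heart 4 or sedentary heart 3 was left out, the lipid uptake count was 5, 5 and 4, and the count of PPARα targets was 1 in each. With the atrial markers as a covariate, 3 lipid uptake genes passed and 0 genes of the other lists in this paragraph, and with the cardiomyocyte markers 1 and 0. With library totals alone, 4 lipid uptake genes, 0 citric acid cycle genes and 1 PPARα target were lower, and of the complex I genes 4 were lower and 1 higher.

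**Figure D4:**
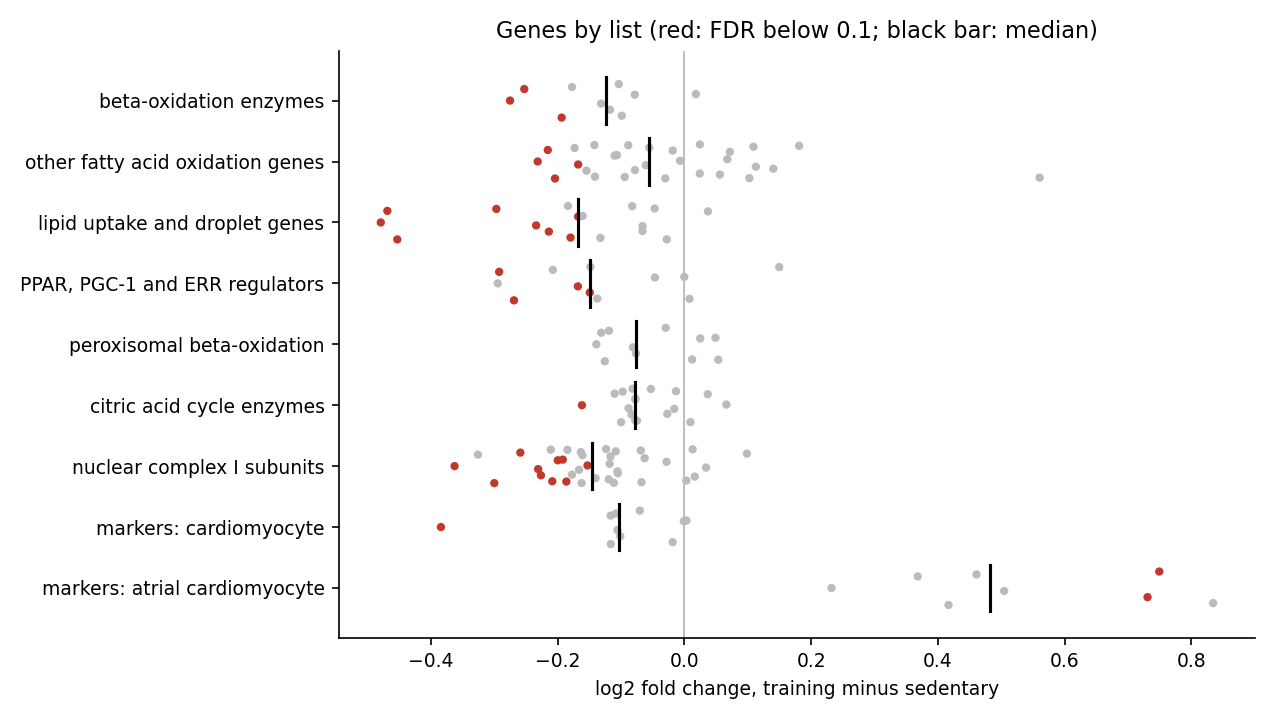
Log2 fold change of every tested gene in 9 lists, training minus sedentary, with genes past an FDR of 0.1 in red and the list median as a black bar. The median lies at −0.12 for the β-oxidation enzymes, −0.10 for cardiomyocyte markers and 0.48 for atrial markers.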

How the data were processed

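RNA was measured in whole hearts of 5 training and 5 sedentary mice, grouped by their labels, with poly-A selected directional libraries read as single reads. Reads were aligned to GRCm39 with STAR 2.7.10a, and its counts per gene and strand, which hold reads mapped to 1 place, were deposited without normalization. The authors also ran RSEM 1.3.3, which divides ambiguous reads among the genes they fit, and deposited its expected counts and its TPM. TPM were scaled by the authors to transcript length and to an equal sum in every heart. The RSEM strand setting is not given in the sources used here.

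Of the STAR columns, the reverse strand, which is the one the kit reads, entered the fits. Lines that name no gene were left out. Identifiers were matched to GENCODE M39 symbols for 56017 of 56748. In R 4.3.3, groups were compared by edgeR 4.0.16 (glmQLFit and glmQLFTest) after filterByExpr and TMM scaling. P-values were adjusted after Benjamini and Hochberg over all 15454 tested genes, and genes were called at an FDR of 0.1. The standard error was taken as the absolute log2 fold change over the root of F. CPM use TMM-corrected library sizes, with a prior count of 2 for logarithms. RSEM counts were rounded to whole numbers before the fit. Near-identical copies were searched with blastn 2.17.0 at 95% identity over at least 100 bases. The fits were tested on simulated data.

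Alternatives were DESeq2 1.42.0, DESeq2 size factors, RSEM counts, library totals alone, a filter of 10 counts per library or none, both strands, no mitochondrial DNA genes, the mouse number as a block, an atrial covariate, an FDR of 0.05 and each heart left out. A cardiomyocyte covariate was chosen after seeing the data. The members and lists were chosen with earlier results of these data known. Named were all 10 members, Cpt1a, called genes of the other fatty acid oxidation and regulator lists, the gene with the smallest p of each further list, and the 10 genes most alike in pattern. A gene selected by this rule is not reported here. Crat, Slc22a5, Cpt1c, Etfa, Etfb, Eci1, Decr1, Ech1, Acaca, Acacb, Mlycd, Ppargc1a, Cd36 and the marker genes were named after their values were seen. The p-values set the group difference against the spread between hearts. The labels do not name litters or days, so a batch that coincides with the groups would not be seen.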

Additional observations from a re-analysis of the deposited data

Results flagged for a closer look

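In 1 of 22 groups of 5 values examined, 1 heart stood apart from the rest of its group. Cpt1b in sedentary heart 3 was at 7.88 CPM, where the nearest other sedentary heart was at 10.4 CPM. The gap took up 0.747 of the group's range, above Dixon's critical value of 0.71, which chance exceeds in about 1 in 20 groups. The STAR count behind it was 296 reads, while RSEM gave the same heart 26566 expected counts and 305 TPM, within the sedentary range of 304 to 343 TPM. Without sedentary heart 3, the log2 fold change of Cpt1b from STAR counts was −0.25 (edgeR adjusted p = 0.216).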

How the results depend on the processing

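Cpt2, Etfdh and Eci2 passed an FDR of 0.1 in 9 of 11 other settings and in each of the 10 fits without 1 heart. The exceptions were the covariate fits. There 0 of the 10 β-oxidation genes and 0 of the 29 other genes passed, against 104 of all genes with the atrial and 60 with the cardiomyocyte markers. The median of the 10 genes was −0.027 with the cardiomyocyte markers, where Acadm (0.042) and Hadha (0.015) turned above 0. The cause was not tested. Hadhb turned to −0.011 with RSEM counts, and lay between −0.023 and 0.059 with 1 heart left out. With library totals alone, the median of the 29 genes was −0.0017, with 3 higher and 2 lower calls, and over all genes 1029 were higher and 339 lower, against 425 and 659 with TMM factors. At an FDR of 0.05, 505 genes passed. With 1 heart left out, between 512 and 1490 of all genes, 3 and 4 of the 10 and 2 and 8 of the 29 passed. The median of the 10 genes was then between −0.152 and −0.099, that of the 29 between −0.087 and −0.032, and the Hadha share difference between −0.92 and −0.25 percentage points. The Hadha share difference was −2.35 from STAR counts. DESeq2 called 1473 genes. With the mouse number as a replicate block, 3 of the 10 genes and 1137 of all genes passed, and the median of the 10 was −0.123. Hearts of the same number were not treated as pairs, since their deviations correlated between −0.097 and 0.159, and 1 of 5 correlated best with its own number. The STAR counts of Cpt1b, at most 439 reads per heart, limit the precision of its value.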
